A study of Mus musculus with 12 samples.

Results

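The genes described here are 28 mouse genes of sterol and fatty acid synthesis, measured by RNA-seq in 3 bone marrow cell types that lack the histone deacetylase HDAC3 and in their controls. They were chosen by symbol, for their known roles, with earlier results of these data known. All 28 were present in the 3 deposited tables, which together hold 21088 distinct gene IDs. The cells were lymphoid-primed multipotent progenitors (LMPPs), the CD115-negative common dendritic cell progenitors (CD115-CDPs) and bone marrow plasmacytoid dendritic cells (BM pDCs). HDAC3-deficient cells came from C57BL/6 Hdac3 fl/fl mice that also carried CreERT2, a Cre recombinase switched on by tamoxifen, and control cells came from Hdac3 fl/fl mice without Cre. Mice of both genotypes received tamoxifen by injection for 5 days and cells were sorted 7 days later, so the controls share the floxed alleles and the drug. The Cre was expressed from the Rosa26 locus, which is active in nearly all tissues, so deletion was not limited to the sorted cells. Neither the age of the mice nor any pooling of mice is stated in the sources. Each genotype had 2 libraries in each cell type, 12 in all, and since nothing says that these came from separate mice, the p-values measure only the spread between these libraries, which may be technical.

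Cells make cholesterol from acetyl-CoA through mevalonate, farnesyl diphosphate and squalene, and make fatty acids from the same acetyl-CoA through malonyl-CoA. Transcription of most of these enzymes is driven by the sterol regulatory element-binding proteins (SREBPs), which are held in the endoplasmic reticulum by INSIG proteins when sterols are plentiful and are carried by SCAP to the Golgi and released by proteolysis when sterols are scarce. HDAC3 supplies the deacetylase activity of the NCoR and SMRT corepressor complexes, and in liver, where it has been studied most for this purpose, it is known to restrain genes of lipid synthesis. pDCs are secretory cells with an extensive endoplasmic reticulum.

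*Hdac3* itself was read first, in FPKM, which is the number of fragments of a gene scaled to its transcript length and to the total of its library. It was at 16.9 and 9.87 FPKM in HDAC3-deficient LMPPs, against 56.5 and 66.4 FPKM in control LMPPs, and at 15.6 and 15.9 FPKM in HDAC3-deficient BM pDCs, against 38.9 and 37.8 FPKM in control BM pDCs. In CD115-CDPs it was at 12.1 and 0.93 FPKM in the HDAC3-deficient libraries, against 58.2 and 39.6 FPKM in the controls. All 6 HDAC3-deficient libraries thus lay below the controls of their table, as labelled, and the remaining signal can include reads from exons outside the floxed part of the gene. As an example marker of each cell type, *Cd34* was at 523 to 807 FPKM in the LMPP libraries, *Irf8* at 318 to 1696 FPKM in the CD115-CDP libraries and *Siglech* at 855 to 1951 FPKM in the BM pDC libraries. Each of these markers lay lower in both HDAC3-deficient libraries than in both controls of its cell type. *Irf8* does not single out CD115-CDPs, since it was at 1639 to 1952 FPKM in the BM pDC libraries. *Csf1r*, which encodes CD115, was detected as RNA at 21.5 to 139 FPKM in the CD115-CDP libraries although the cells were sorted as negative for the protein. One CD115-CDP library stood apart. HDAC3-deficient library 2 listed 11288 genes above 0, against 13684 to 15173 in the other 3, and its correlation with HDAC3-deficient library 1 across genes was 0.871, against 0.977 between the CD115-CDP controls and 0.985 to 0.995 within the genotypes of the other cell types. LMPP control library 1 carried globin RNA, and the 6 erythroid marker genes summed to 6782 FPKM there and to 278 to 495 FPKM in the other 3 LMPP libraries. The excess came from *Hbb-bs*, at 2692 FPKM there and 40.4 FPKM in control library 2, and *Hba-a1*, at 3700 and 58.4 FPKM. *Car2*, *Gata1*, *Klf1* and *Tfrc* showed no such excess, with *Car2* at 382 and 386 FPKM in the LMPP controls. The BM pDC libraries held 1.81e+07 to 1.85e+07 estimated reads, and for the other 2 cell types the depth is unknown.

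Promoter sequence is shown for 5 of the members described below, so that the letters can be read beside the responses. RefSeq promoter windows on GRCm38.p6, the assembly also called mm10, run from 250 bases before to 50 bases after an annotated start, and 22 of the 28 genes had one. In lower case, with capitals marking CCAAT (the box bound by NF-Y, a partner of SREBPs) on either strand, where ATTGG is its reverse, and TCACNCCAC (a sterol regulatory element), they read 5′ to 3′ on the strand of the gene:
Hmgcs1, chr13:119690101-119690400, plus strand: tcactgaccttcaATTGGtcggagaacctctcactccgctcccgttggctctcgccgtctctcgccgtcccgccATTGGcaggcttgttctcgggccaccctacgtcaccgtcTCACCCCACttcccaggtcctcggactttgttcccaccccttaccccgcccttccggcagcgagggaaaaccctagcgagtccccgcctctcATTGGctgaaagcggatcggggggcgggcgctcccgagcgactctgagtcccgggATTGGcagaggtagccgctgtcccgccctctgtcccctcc
Nsdhl, chrX:72918271-72918570, plus strand: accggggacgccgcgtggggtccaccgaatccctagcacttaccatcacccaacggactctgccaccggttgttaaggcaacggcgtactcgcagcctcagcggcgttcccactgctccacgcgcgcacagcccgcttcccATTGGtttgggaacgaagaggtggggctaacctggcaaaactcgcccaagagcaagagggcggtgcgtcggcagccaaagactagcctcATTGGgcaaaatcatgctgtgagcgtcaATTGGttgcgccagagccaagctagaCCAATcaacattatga
Acss2, chr2:155517793-155518092, plus strand: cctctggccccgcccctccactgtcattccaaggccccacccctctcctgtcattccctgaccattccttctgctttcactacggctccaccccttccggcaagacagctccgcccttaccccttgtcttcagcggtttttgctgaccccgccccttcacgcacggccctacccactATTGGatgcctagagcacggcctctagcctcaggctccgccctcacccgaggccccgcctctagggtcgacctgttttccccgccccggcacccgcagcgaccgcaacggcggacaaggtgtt
Elovl6, chr3:129532136-129532435, plus strand: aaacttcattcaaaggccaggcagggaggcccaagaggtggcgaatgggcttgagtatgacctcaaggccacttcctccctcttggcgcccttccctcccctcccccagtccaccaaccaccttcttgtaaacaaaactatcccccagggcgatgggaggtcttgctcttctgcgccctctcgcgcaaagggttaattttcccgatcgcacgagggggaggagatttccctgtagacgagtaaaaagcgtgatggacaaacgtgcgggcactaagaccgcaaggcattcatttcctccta
Fasn, chr11:120824498-120824797, minus strand: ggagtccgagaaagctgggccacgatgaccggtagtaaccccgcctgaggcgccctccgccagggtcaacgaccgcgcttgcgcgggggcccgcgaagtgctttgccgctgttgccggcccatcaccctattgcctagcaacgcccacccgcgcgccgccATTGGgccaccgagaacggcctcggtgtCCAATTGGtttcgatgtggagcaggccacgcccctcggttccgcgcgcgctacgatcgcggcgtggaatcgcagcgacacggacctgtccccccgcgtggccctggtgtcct

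The Hmgcs1 window holds the only TCACNCCAC match among the 22 genes, 137 bases before the start, and 1.24% of all 32851 RefSeq windows hold one. A longer form of this element, found in 0.0913% of all windows, was in 0 of the 25 member windows. CCAAT was in 19 of the 25 member windows (76.0%; some genes have several starts), against 37.4% of all windows and 38.2% of the windows of protein-coding genes. GGGCGG, the Sp1 box, was in 19 of 25 member windows too, against 35.7% of all windows and 46.2% of those of protein-coding genes, and the E-box CACGTG was in 4 of 25, against 7.15% of all windows. Both strands were searched for each motif. Among the printed windows, *Nsdhl* and *Hmgcs1* each hold 4 CCAAT matches, *Fasn* holds 3, of which 2 overlap, *Acss2* holds 1 and *Elovl6* holds 0. In BM pDCs *Nsdhl*, *Acss2* and *Elovl6* fell, *Fasn* rose and *Hmgcs1* had no call (below). A match is a description of the letters and not a binding site.

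Across the 28 genes, changes without HDAC3 were few in LMPPs, more frequent in BM pDCs and not called in CD115-CDPs. In LMPPs, 27 genes were abundant enough to test (at least 1 FPKM in at least 2 libraries), and at a Benjamini-Hochberg adjusted p under 0.05 in limma on log2(FPKM + 0.5), 2 rose (*Mvd* and *Fasn*) and 2 fell (*Acss2* and *Fads1*). These 4 calls were 14.8% of the tested synthesis genes, against 23.1% of the 11146 genes tested in LMPPs, of which 4.31% rose and 18.8% fell. An unadjusted p under 0.05 was found for 10 of the 27, against 38.5% of all genes. In BM pDCs, where estimated read counts allowed a test with edgeR, all 28 were tested and 3 rose (*Mvd*, *Fasn* and *Fads1*) and 10 fell (*Elovl6*, *Acss2*, *Idi1*, *Dhcr7*, *Tm7sf2*, *Pmvk*, *Nsdhl*, *Sqle*, *Msmo1* and *Acly*). The 13 calls were 46.4% of the genes, near the 44.1% of all 12716 genes tested. By direction, 35.7% of the synthesis genes fell, against 22.5% of all genes tested, and 10.7% rose, against 21.6%. An unadjusted p under 0.05 was found for 16 of the 28, against 52.2% of all genes. In CD115-CDPs 0 of 27 tested genes had a call and 0 had an unadjusted p under 0.05, where limma called 0% of all 10832 genes and 9.01% had an unadjusted p under 0.05. The deleted gene *Hdac3* itself had no call there (log2 -3.52, SE 1.01; adjusted p = 0.46 in limma). A lack of calls in CD115-CDPs therefore does not show a lack of change. Fits with either HDAC3-deficient library left out there rest on 1 library in that group, and the values of each library are described below. In bulk samples, a smaller share of cells that express a gene and less of its RNA per cell cannot be told apart.

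**Figure D1:**
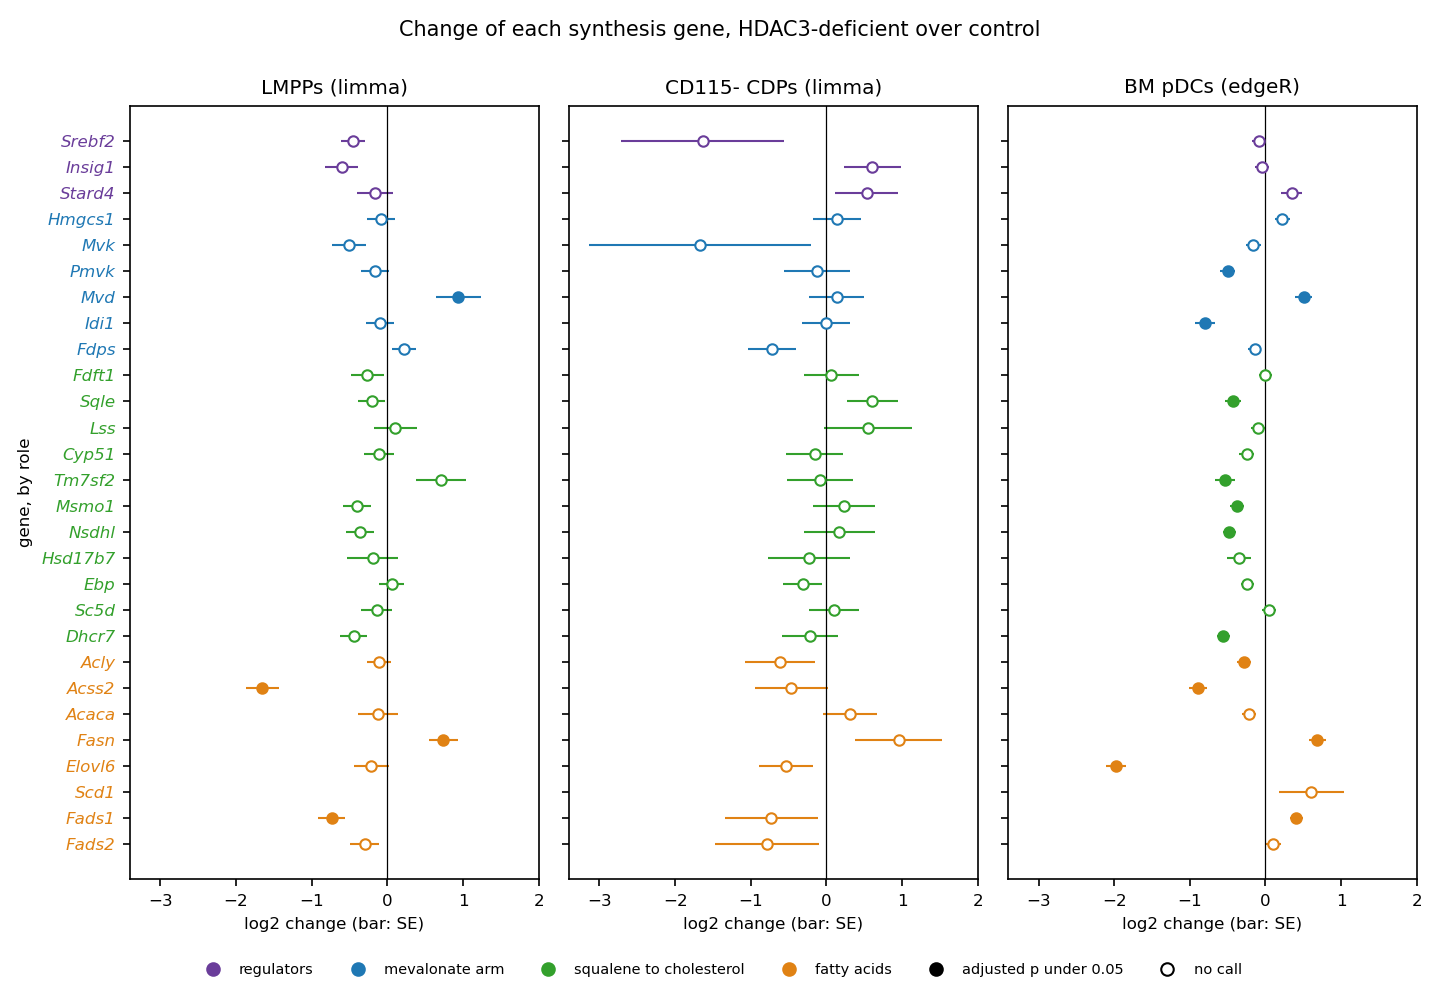
Log2 change of each of the 28 genes, HDAC3-deficient over control, in LMPPs and CD115-CDPs (limma on log2(FPKM + 0.5)) and in BM pDCs (edgeR on estimated counts), with bars of 1 SE from the model; filled points have an adjusted p under 0.05 and colours give the role. The filled points number 4 in LMPPs, 0 in CD115-CDPs and 13 in BM pDCs, *Elovl6* in BM pDCs lies farthest from 0 among them, and the SEs are widest in CD115-CDPs, where *Scd1* is not drawn, as in LMPPs.

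The scale of these changes differs between the tables. In LMPPs the median log2 change over all tested genes was -0.24, against -0.17 over the 27 synthesis genes, and 21 of the 27 had a negative estimate, but with FPKM rescaled by the median ratio of the libraries the medians were -0.002 for all genes and 0.08 for the synthesis genes and 11 of 27 were negative. No common direction of the synthesis genes can therefore be read in LMPPs. In BM pDCs the median change by edgeR was -0.01 over all genes and -0.19 over the 28, of which 20 had a negative estimate. FPKM in that table ran lower in the HDAC3-deficient libraries, with a median log2 change of -0.15 over all genes and -0.33 over the synthesis genes, so ratios of the FPKM values given below are somewhat lower than the edgeR changes beside them. In BM pDCs, 20 of 28 genes (71.4%) had both HDAC3-deficient libraries below both controls by FPKM, against 48.9% of all genes tested, and 3 (10.7%) had both above, against 27.2%. In LMPPs 9 of 27 (33.3%) lay below, against 48.2% of all genes, and 4 (14.8%) above, against 17.6%. In CD115-CDPs 4 of 27 (14.8%) lay below, against 28.4%, and 5 (18.5%) above, against 15.2%.

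**Figure D2:**
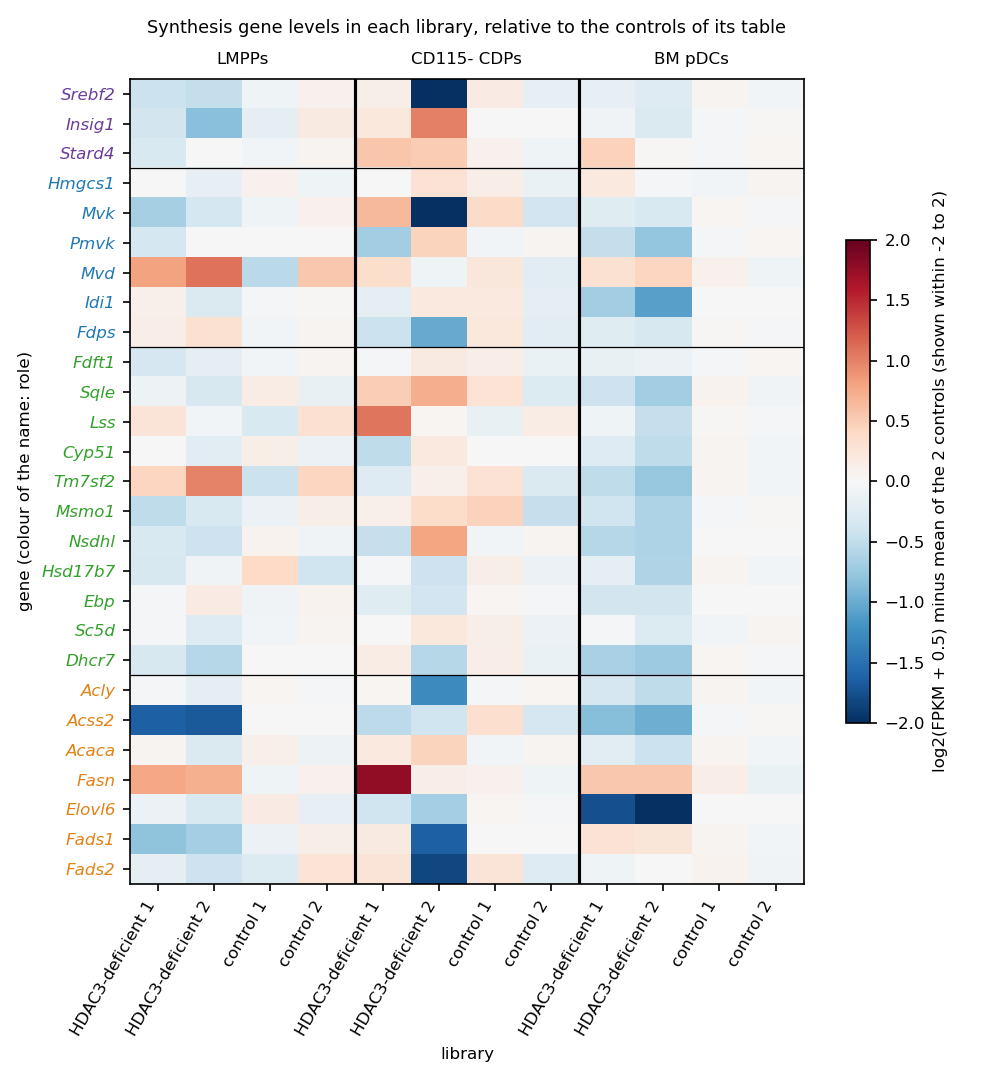
Colour gives log2(FPKM + 0.5) of each gene in each of the 12 libraries minus the mean of the 2 control libraries of the same table (blue lower, red higher, shown within -2 to 2), for 27 genes without the nearly undetected *Scd1*; the colours of the names give the roles. *Acss2* is blue in all 6 HDAC3-deficient libraries and *Fasn* red in all 6, *Elovl6* is deep blue in both HDAC3-deficient BM pDC libraries, and HDAC3-deficient CD115-CDP library 2 departs from library 1 for *Srebf2*, *Mvk*, *Acly*, *Fads1* and *Fads2*.

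The 3 regulators had no call in any cell type. *Srebf2*, which encodes SREBP-2, the main activator of the cholesterol enzymes, was at 54.6 and 52.7 FPKM in HDAC3-deficient LMPPs, against 69.7 and 78.2 FPKM in controls, a log2 difference of -0.46 (SE 0.16; adjusted p = 0.052). In BM pDCs it was at 95.5 and 90.4 FPKM without HDAC3, against 112 and 103 FPKM in controls, and the estimate by counts was near 0 (log2 -0.08, SE 0.09; adjusted p = 0.52). *Srebf2* lay below both controls by FPKM in both cell types, by an amount that the tests did not call. Of all genes tested, 48.2% in LMPPs and 48.9% in BM pDCs also lay below both controls by FPKM. *Insig1*, the sterol-sensitive retention factor and itself an SREBP target, measured 14.2 and 10.2 FPKM in HDAC3-deficient LMPPs, against 16.3 and 21.1 FPKM in controls (log2 -0.60, SE 0.22; adjusted p = 0.060). In BM pDCs *Insig1* was abundant in both genotypes, at 85.8 and 73.6 FPKM without HDAC3 and 88.4 and 92.1 FPKM in controls (log2 -0.05, SE 0.09). *Stard4*, a sterol carrier protein of the cytosol, was at 7.61 and 5.50 FPKM in HDAC3-deficient BM pDCs, against 5.24 and 5.53 FPKM, and its groups overlapped there and in LMPPs.

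The mevalonate arm had calls in both directions in BM pDCs, where 1 of its 6 genes rose, 2 fell and the median log2 change was -0.15. Of all genes tested there, 21.6% rose and 22.5% fell. *Mvd*, the mevalonate diphosphate decarboxylase (NCBI Gene 192156, chr8:122433596-122443422, GRCm38), was at 12.6 and 15.4 FPKM in HDAC3-deficient LMPPs, against 4.67 and 10.5 FPKM in controls, and rose by log2 0.94 (SE 0.30; adjusted p = 0.034). The 2 LMPP controls differed more from each other than the HDAC3-deficient libraries did, and the call was lost without control library 1, without HDAC3-deficient library 2, without the filter on low values and without the trend in the variance, with an adjusted p of up to 0.41 over the alternatives. In BM pDCs *Mvd* was at 35.6 and 38.7 FPKM without HDAC3, against 30.4 and 27.1 FPKM, and rose by log2 0.50 (SE 0.11; adjusted p = 0.0079), a call lost without control library 2. *Idi1*, the isomerase of isopentenyl diphosphate (NCBI Gene 319554, chr13:8885606-8892396), went the other way in BM pDCs. It was at 7.54 and 5.60 FPKM without HDAC3, against 12.5 and 12.5 FPKM in controls (399 and 298 estimated reads, against 663 and 650), and fell with a log2 change of -0.80 (SE 0.13; adjusted p = 0.0028). *Pmvk*, the phosphomevalonate kinase, also fell in BM pDCs, at 33.2 and 27.0 FPKM without HDAC3, against 45.4 and 47.8 FPKM (log2 -0.50, SE 0.10; adjusted p = 0.0075), and lost its call when either control library was left out.

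The other 3 mevalonate enzymes had no call. *Hmgcs1*, the HMG-CoA synthase and the gene whose promoter holds the sterol regulatory element shown above, was at 41.7 and 35.3 FPKM in HDAC3-deficient BM pDCs, against 34.9 and 37.5 FPKM in controls, and at 21.6 and 19.2 FPKM in HDAC3-deficient LMPPs, against 22.9 and 20.2 FPKM, with overlapping groups in both. *Fdps*, the farnesyl diphosphate synthase and the most abundant of the 28 genes in every table's control mean, was at 111 and 105 FPKM in HDAC3-deficient BM pDCs, against 134 and 129 FPKM (log2 -0.14, SE 0.08; adjusted p = 0.21). *Mvk*, the mevalonate kinase, was at 12.3 and 11.7 FPKM in HDAC3-deficient BM pDCs, against 15.03 and 14.25 FPKM, and at 6.57 and 8.30 FPKM in HDAC3-deficient LMPPs, against 10.01 and 11.39 FPKM. The *Mvk* groups did not overlap in either cell type, and neither difference passed the test (adjusted p = 0.23 in BM pDCs and 0.12 in LMPPs). By FPKM, 48.9% of all genes tested in BM pDCs and 48.2% in LMPPs lay below both controls.

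The 11 genes of the arm from squalene to cholesterol had calls in 1 direction in BM pDCs. There, 5 fell and 0 rose, 10 of 11 (90.9%) had both HDAC3-deficient libraries below both controls by FPKM, and the median log2 change was -0.35. Over all genes tested, 22.5% fell, 21.6% rose, 48.9% lay below both controls by FPKM, a scale that ran lower without HDAC3 in this table, and the median log2 change was -0.01. *Dhcr7*, which catalyses the last step to cholesterol from 7-dehydrocholesterol (NCBI Gene 13360, chr7:143823167-143848410), had the largest fall of the arm. It was at 30.7 and 28.9 FPKM without HDAC3, against 49.6 and 46.7 FPKM in controls (1356 and 1274 estimated reads, against 2173 and 2033), a log2 change of -0.56 (SE 0.09; adjusted p = 0.0020). *Nsdhl*, a dehydrogenase that helps to remove the C4 methyl groups (NCBI Gene 18194, chrX:72918521-72958528), was at 16.7 and 16.2 FPKM without HDAC3, against 25.0 and 25.3 FPKM in controls (log2 -0.48, SE 0.08; adjusted p = 0.0037). The calls of *Dhcr7* and *Nsdhl* held in all 9 alternatives run.

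The other 3 falls of this arm were *Sqle*, *Msmo1* and *Tm7sf2*. *Sqle*, squalene epoxidase, was at 29.2 and 24.1 FPKM in HDAC3-deficient BM pDCs, against 41.1 and 37.4 FPKM in controls (log2 -0.43, SE 0.11; adjusted p = 0.015). *Msmo1*, the C4-methylsterol oxidase, was at 42.6 and 36.5 FPKM, against 55.2 and 57.4 FPKM (log2 -0.38, SE 0.09; adjusted p = 0.014). *Tm7sf2*, a C14-sterol reductase, was at 7.54 and 6.23 FPKM, against 11.3 and 10.5 FPKM (log2 -0.53, SE 0.13; adjusted p = 0.014). For each of these genes the groups were apart, and the call was lost when either control library was left out and, for *Tm7sf2*, also in DESeq2. The 6 genes without a call were *Fdft1* (squalene synthase), *Lss* (lanosterol synthase), *Cyp51* (lanosterol demethylase), *Hsd17b7*, *Ebp* and *Sc5d*, whose log2 estimates lay between -0.35 for *Hsd17b7* and 0.05 for *Sc5d*. *Ebp*, the sterol isomerase, was nearest to a call, at 25.6 and 25.4 FPKM without HDAC3, against 32.9 and 33.1 FPKM in controls (log2 -0.24, SE 0.08; adjusted p = 0.053).

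In LMPPs 0 of the 11 genes of this arm had a call, and their median log2 change of -0.19 lay near the -0.24 of all genes. *Dhcr7* was at 25.8 and 21.7 FPKM in HDAC3-deficient LMPPs, against 32.4 and 32.5 FPKM in controls (log2 -0.45, SE 0.18; adjusted p = 0.077). *Tm7sf2* lay in the other direction there, at 3.60 and 5.52 FPKM without HDAC3, against 1.75 and 3.59 FPKM in controls (log2 0.71, SE 0.33; adjusted p = 0.12). *Ebp* was at 44.5 and 51.0 FPKM, against 43.6 and 47.8 FPKM, with overlapping groups.

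**Figure D3:**
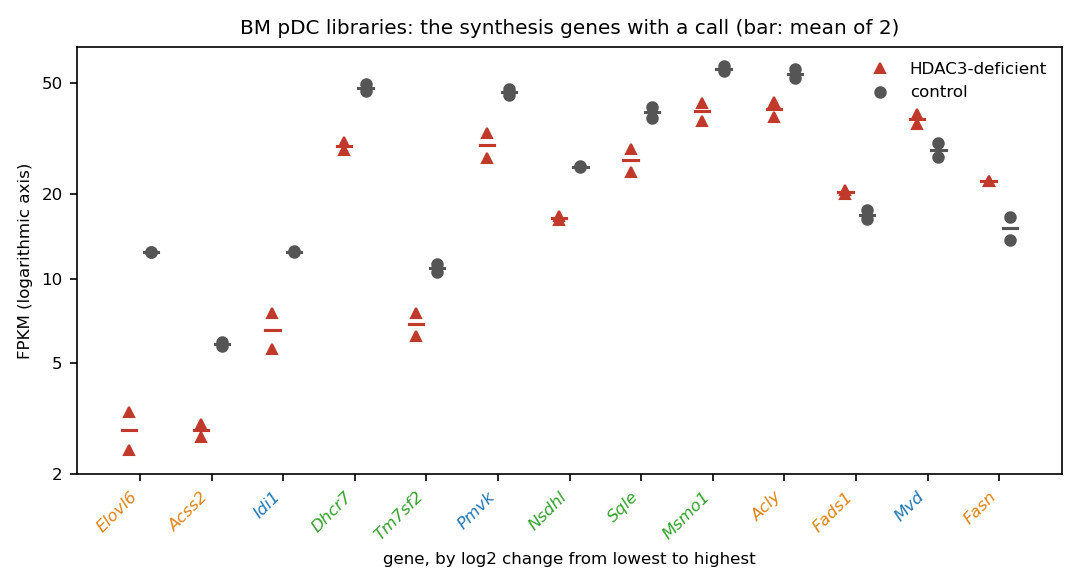
FPKM on a logarithmic axis in the HDAC3-deficient (red triangles) and control (grey circles) BM pDC libraries for the 13 genes with a call, ordered by their edgeR log2 change, with a bar at the mean of 2 libraries. The groups are apart for all 13; *Elovl6* shows the widest gap, at 3.34 and 2.44 FPKM against 12.5 and 12.5 FPKM, and *Fads1*, *Mvd* and *Fasn* lie above their controls.

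Among the 8 fatty acid genes, 2 rose and 3 fell in BM pDCs, and 1 rose and 2 fell of 7 tested in LMPPs, with median log2 changes of -0.06 and -0.21. Of all genes tested, 21.6% rose and 22.5% fell in BM pDCs, and 4.31% rose and 18.8% fell in LMPPs. *Elovl6*, which elongates palmitate to stearate (NCBI Gene 170439, chr3:129532386-129638495), was at 3.34 and 2.44 FPKM in HDAC3-deficient BM pDCs, against 12.5 and 12.5 FPKM in controls (368 and 272 estimated reads, against 1375 and 1365). Its log2 change of -1.98 (SE 0.13; adjusted p = 6.6e-05) was the largest of the 28 genes in BM pDCs and held in all 9 alternatives, within -2.17 to -1.80. In LMPPs *Elovl6* was at 7.96 and 6.86 FPKM without HDAC3, against 9.70 and 7.68 FPKM, with overlapping groups (log2 -0.21, SE 0.23; adjusted p = 0.53). In CD115-CDPs it was at 10.4 and 8.44 FPKM, against 14.2 and 13.4 FPKM, apart but without a call (log2 -0.53, SE 0.35). Whether the *Elovl6* change differs between the cell types was not tested, since the tables were normalized separately.

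*Acss2*, the acetyl-CoA synthetase that makes acetyl-CoA from acetate (NCBI Gene 60525, chr2:155518043-155562743), fell in both LMPPs and BM pDCs. It was at 5.13 and 4.95 FPKM in HDAC3-deficient LMPPs, against 16.8 and 17.0 FPKM in controls, a log2 change of -1.65 (SE 0.21; adjusted p = 1.6e-04) that kept its call in all 12 alternatives. In BM pDCs it was at 3.03 and 2.72 FPKM without HDAC3, against 5.74 and 5.95 FPKM in controls (158 and 143 estimated reads, against 300 and 307), a log2 change of -0.89 (SE 0.12; adjusted p = 0.0011) that kept its call in all 9. In CD115-CDPs it was at 3.52 and 3.85 FPKM, against 6.80 and 4.04 FPKM, both HDAC3-deficient libraries lying just below the lower control (log2 -0.46, SE 0.48). *Acly*, which makes acetyl-CoA from citrate, was at 42.8 and 37.8 FPKM in HDAC3-deficient BM pDCs, against 56.0 and 52.0 FPKM, and fell by 0.29 on the log2 scale (SE 0.09; adjusted p = 0.040), a call lost when either control library was left out, without the filter on low counts and with a replicate block. In LMPPs *Acly* overlapped, at 90.8 and 80.1 FPKM, against 94.7 and 89.6 FPKM.

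*Fasn*, the fatty acid synthase (NCBI Gene 14104, chr11:120805958-120825166), was above its controls in all 3 cell types. It was at 20.6 and 19.7 FPKM in HDAC3-deficient LMPPs, against 11.1 and 12.6 FPKM in controls, and rose by log2 0.74 (SE 0.19; adjusted p = 0.014). That call was lost without control library 1 and without the filter on low values (adjusted p up to 0.11). In BM pDCs it was at 22.3 and 22.3 FPKM without HDAC3, against 16.7 and 13.8 FPKM, and rose by log2 0.68 (SE 0.11; adjusted p = 0.0028) in all 9 alternatives. In CD115-CDPs it was at 52.2 and 16.5 FPKM, against 15.9 and 14.1 FPKM, so that nearly all of the difference came from HDAC3-deficient library 1 (log2 0.95, SE 0.57; adjusted p = 0.62). *Acaca*, the acetyl-CoA carboxylase upstream of FASN, had no call and was at 6.46 and 5.57 FPKM in HDAC3-deficient BM pDCs, against 8.02 and 7.34 FPKM in controls (log2 -0.22, SE 0.10; adjusted p = 0.10), and overlapped in LMPPs.

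The desaturases gave calls of opposite direction. *Fads1*, the delta-5 desaturase (NCBI Gene 76267, chr19:10182877-10196874), was at 16.0 and 17.5 FPKM in HDAC3-deficient LMPPs, against 26.1 and 30.4 FPKM in controls, and fell by 0.74 on the log2 scale (SE 0.18; adjusted p = 0.011). The estimate stayed negative with median ratio or quantile scaling but the call was lost with either, and also without control library 2 or without the filter on low values (adjusted p up to 0.14). In BM pDCs *Fads1* was at 20.77 and 20.03 FPKM without HDAC3, against 17.6 and 16.3 FPKM, and rose by log2 0.41 (SE 0.09; adjusted p = 0.0090), a call lost when either control library was left out. *Fads2*, the neighbouring delta-6 desaturase, was at 69.7 and 74.3 FPKM in HDAC3-deficient BM pDCs, against 77.3 and 70.1 FPKM, and at 40.6 and 34.6 FPKM in HDAC3-deficient LMPPs, against 38.4 and 55.9 FPKM, overlapping in both. *Scd1*, the stearoyl-CoA desaturase of liver and fat, was nearly absent: its highest value in the 12 libraries was 0.84 FPKM, in HDAC3-deficient BM pDC library 1.

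In CD115-CDPs the HDAC3-deficient libraries disagreed for several members. *Srebf2* was at 93.7 FPKM in HDAC3-deficient library 1 and 7.84 FPKM in library 2, against 97.4 and 76.9 FPKM in controls. *Mvk* was at 11.8 FPKM in HDAC3-deficient library 1 and listed at 0 in library 2, against 9.79 and 5.57 FPKM. *Acly* was at 88.3 and 35.4 FPKM, against 83.7 and 87.8 FPKM, *Fads1* at 32.9 and 9.01 FPKM, against 28.7 and 29.3 FPKM, and *Fads2* at 64.4 and 14.9 FPKM, against 64.79 and 44.95 FPKM. For these genes library 2 lay below both controls and library 1 did not. *Insig1*, *Sqle* and *Nsdhl* lay above both controls in library 2, with *Nsdhl* at 16.5 and 39.9 FPKM, against 21.9 and 23.7 FPKM. With HDAC3-deficient library 1 left out, the lone library 2 is assumed to vary like the controls, so calls from that setting are not read here. With library 2 left out instead, the log2 estimate was 1.77 for *Fasn* and -0.70 for *Pmvk*. Without a setting that removes a library, the non-overlapping genes were *Insig1*, *Stard4*, *Sqle*, *Acaca* and *Fasn* above their controls and *Fdps*, *Ebp*, *Acss2* and *Elovl6* below. *Insig1* was at 21.3 and 37.1 FPKM, against 18.3 and 18.2 FPKM (log2 0.61, SE 0.37), *Sqle* at 26.8 and 31.6 FPKM, against 23.0 and 15.6 FPKM (log2 0.61, SE 0.34), and *Fdps* at 134 and 88.7 FPKM, against 209 and 155 FPKM (log2 -0.72, SE 0.32), with an adjusted p of 0.56 or more for each.

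Other genes of the same pathways, taken from lists of known roles, also had calls in both directions in BM pDCs. Of 5 other regulators of SREBP processing, *Scap*, the escort of SREBPs to the Golgi, was at 44.5 and 40.3 FPKM without HDAC3, against 84.8 and 79.5 FPKM, and fell with a log2 change of -0.82 (SE 0.09; adjusted p = 5.0e-04). *Srebf1*, which encodes the SREBP-1 isoforms that favour fatty acid genes, was at 37.1 and 34.9 FPKM, against 31.8 and 29.0 FPKM, and rose by log2 0.38 (adjusted p = 0.013), a call lost when either control library was left out and in limma on FPKM. *Insig2* and the site-1 and site-2 protease genes *Mbtps1* and *Mbtps2* had no call there. Among further sterol and isoprenoid enzymes, *Lbr*, a lamin B receptor with C14-sterol reductase activity, was at 95.4 and 83.0 FPKM, against 62.0 and 65.6 FPKM, and rose (log2 0.62; adjusted p = 0.0019). *Lbr* and *Tm7sf2* encode enzymes of the same reaction and had opposite calls. Of 7 genes of sterol uptake, lysosomal export and ester turnover, 3 fell (*Npc1* with log2 -0.60, *Npc2* with log2 -0.46 and *Nceh1* with log2 -1.20) and 0 rose, beside 22.5% and 21.6% of all genes tested.

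Of 16 other fatty acid genes tested in BM pDCs, 4 rose and 6 fell, beside 21.6% and 22.5% of all genes tested. *Scd2*, the stearoyl-CoA desaturase found outside the liver, was at 99.8 and 95.0 FPKM without HDAC3, against 44.4 and 39.0 FPKM in controls, and rose by log2 1.36 (SE 0.10; adjusted p = 9.6e-05). *Acsl3*, an acyl-CoA synthetase, was at 2.32 and 2.05 FPKM, against 0.52 and 0.50 FPKM, and rose by log2 2.23 (SE 0.19). *Elovl5* also rose (log2 0.39), and *Acacb* rose at very low levels, 0.08 and 0.12 FPKM without HDAC3, against 0.03 FPKM in both controls. The 6 that fell were *Slc25a1*, *Elovl1*, *Fads3*, *Hsd17b12*, *Hacd3* and *Acsl4*, with log2 changes from -0.68 for *Hacd3* to -0.35 for *Elovl1*. The calls of *Npc2*, *Elovl5*, *Acacb*, *Elovl1*, *Fads3* and *Acsl4* were lost when either control library was left out, and those of *Npc1* and *Slc25a1* without control library 1. In LMPPs, 1 of the 31 tested genes of these 4 lists rose and 5 fell, beside 4.31% and 18.8% of the 11146 genes with a test there. *Mecr* rose (log2 0.74), and among the falls were *Insig2* (5.21 and 5.38 FPKM without HDAC3, against 11.6 and 9.19 FPKM; log2 -0.90, adjusted p = 0.014), *Nceh1* (log2 -1.45), *Acsl3* (log2 -0.79) and *Acsl4* (log2 -0.75). Of these, the calls of *Insig2*, *Acsl3* and *Acsl4* were lost with median ratio scaling and without control library 1, that of *Mecr* was lost without control library 2, and *Acsl3* thus had calls of opposite sign in LMPPs and BM pDCs on the deposited scale. In CD115-CDPs 0 of the 31 tested had a call.

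Marker lists were read beside the synthesis genes, and no link between them was tested. Over all genes tested, 21.6% rose and 22.5% fell in BM pDCs, and 4.31% rose and 18.8% fell in LMPPs. In BM pDCs 7 of 8 proliferation genes rose, their summed level being 640 and 614 FPKM without HDAC3, against 308 and 311 FPKM in controls. Of 8 pDC marker genes, 6 fell, with sums of 3834 and 3489 FPKM, against 7770 and 8114 FPKM, and of 6 conventional dendritic cell markers 3 rose and 1 fell, with sums of 346 and 329 FPKM, against 231 and 222 FPKM. Of 6 granulocyte progenitor genes 3 rose, with sums of 349 and 255 FPKM, against 199.8 and 220.4 FPKM. Of 6 erythroid genes 3 rose (*Gata1*, *Klf1* and *Car2*) and 1 fell, with overlapping sums of 682 and 240 FPKM, against 328 and 427 FPKM, and *Car2* was at 103.6 and 36.1 FPKM, against 4.79 and 7.56 FPKM. Of 4 T and NK cell genes 2 were tested and 1 rose, *Nkg7*, at 10.6 and 12.7 FPKM, against 5.24 and 4.54 FPKM. *Cd3e* and *Cd3g* were not tested and were at 0.49 FPKM or below in each BM pDC library. In LMPPs, proliferation genes summed to 1062 and 1030 FPKM without HDAC3, against 801 and 794 FPKM (2 of 8 rose), granulocyte progenitor genes to 4662 and 5583 FPKM, against 2294 and 2740 FPKM (3 of 6 rose), and all 6 neutrophil genes fell, with sums of 46.6 and 16.0 FPKM, against 612 and 423 FPKM. In CD115-CDPs, where no marker had a call, the pDC markers summed to 483 and 348 FPKM, against 1996 and 1495 FPKM, the granulocyte progenitor genes to 3520 and 2476 FPKM, against 1058 and 1243 FPKM, and the conventional dendritic cell markers to 18.8 and 21.7 FPKM, against 84.4 and 61.8 FPKM. The part of cell composition or cycling in the changes of the synthesis genes was not tested.

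Control levels were set side by side across the cell types as a description, since the 3 tables were normalized separately. For 17 of the 28 genes both BM pDC controls lay above all LMPP and CD115-CDP controls, for 4 both CD115-CDP controls were highest, for 3 both LMPP controls were highest, and for 4 no cell type stood apart. Neither these counts nor those of the ratios below were made over all genes. Whether these patterns are particular to the synthesis genes therefore cannot be read from them. *Insig1* had the widest gap, at 88.4 and 92.1 FPKM in BM pDC controls, against 18.3 and 18.2 FPKM in CD115-CDP controls and 16.3 and 21.1 FPKM in LMPP controls. Leaving aside the nearly absent *Scd1*, *Tm7sf2*, *Mvd* and *Lss* followed, with BM pDC means 4.08, 3.80 and 2.39 times the LMPP means. Of the 11 genes from squalene to cholesterol, 10 were highest in BM pDCs and *Ebp* was highest in CD115-CDPs. *Acss2* showed the steepest contrast in the other direction, at 16.8 and 17.0 FPKM in LMPP controls, 6.80 and 4.04 FPKM in CD115-CDP controls and 5.74 and 5.95 FPKM in BM pDC controls. *Idi1* was lowest in BM pDCs, at 12.5 FPKM in both controls, against 36.8 and 27.9 FPKM in CD115-CDPs and 28.4 and 29.7 FPKM in LMPPs, and *Acly*, *Ebp* and *Fads1* were also lowest there.

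The size of this contrast depended on the scale. The median ratio of BM pDC to LMPP control means over 27 genes (without *Scd1*) was 1.48 on deposited FPKM, 1.89 with each library scaled to the same sum and 1.94 with median ratio scaling over genes shared by the tables, and 13, 21 and 21 of the genes had a ratio over 1.5. BM pDC was the cell type with the highest control mean for 19, 20 and 21 of the 28 genes on these scales. *Stard4*, *Idi1*, *Ebp*, *Acly*, *Acss2* and *Fads1* had a ratio below 1 on all 3 scales. The LMPP and CD115-CDP RNA was extracted in a buffer for small cell numbers and the BM pDC RNA in Trizol, so that the extraction and the cell type cannot be told apart.

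**Figure D4:**
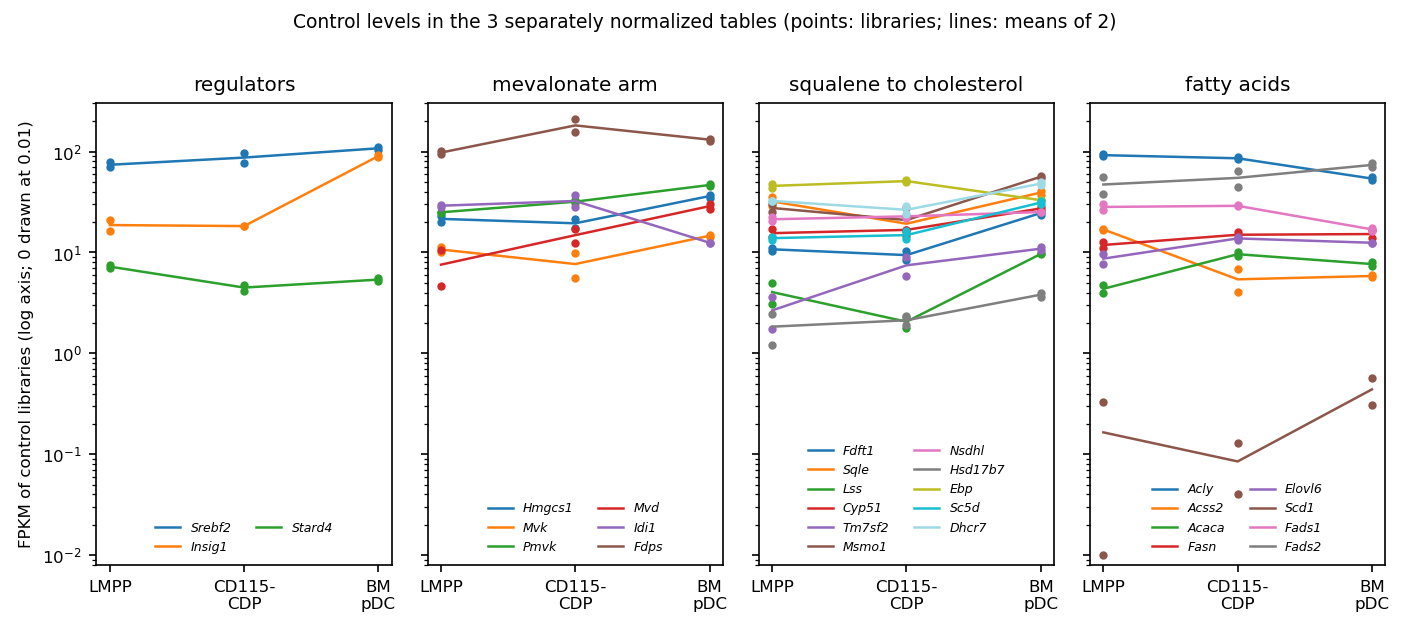
FPKM of the 2 control libraries of LMPPs, CD115-CDPs and BM pDCs (points, logarithmic axis) for each of the 28 genes in 4 panels by role, with lines joining the means of 2. Most lines of the mevalonate and squalene-to-cholesterol panels end highest in BM pDCs, *Stard4*, *Idi1*, *Ebp*, *Acly*, *Acss2* and *Fads1* are exceptions that end lower than in LMPPs, and *Scd1* lies below 1 FPKM in every library; a value of 0 is drawn at 0.01.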

How the data were processed

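RNA-seq libraries of the 3 cell types were grouped by the submitters' genotype labels, with 2 per genotype. Bowtie2, RSEM and mm10 are named in the processing notes of the submitters, with neither version nor role. The authors deposited FPKM per gene for the 2 progenitor types. For BM pDCs the authors deposited expected counts, FPKM and TPM (scaled to the same total in each library), and TPM was not used. CD115-CDP rows were named through the NCBI Gene IDs of the BM pDC table. FPKM summed to 596771 to 707128 in LMPP, 545870 to 577763 in CD115-CDP and 467172 to 491608 in BM pDC libraries.

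Within each cell type, HDAC3-deficient libraries were compared with controls over the whole table. For LMPPs and CD115-CDPs, limma 3.58.1 (eBayes with trend) was run on log2(FPKM + 0.5), keeping genes that reached 1 FPKM in 2 or more libraries, a scale that understates the change of low genes. For BM pDCs, rounded expected counts were tested with edgeR 4.0.16 (filterByExpr, TMM, quasi-likelihood), with DESeq2 1.42.0 as an alternative, in R 4.3.3. Tests were two-sided with Benjamini-Hochberg adjustment over all genes tested and a threshold of 0.05 for a call. The procedure was run on simulated data with known changes. The simulated libraries varied less than the CD115-CDP libraries, so that run does not measure what could be detected in CD115-CDPs. Python 3.11.15, pandas 2.3.3 and matplotlib 3.10.9 served for tables and plots. Other alternatives were pseudocounts of 0.1 and 1, other filters, median ratio and quantile scaling, RLE factors, a replicate block and leaving out each library.

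All 28 genes could be named, and of the other pathway lists those with a call. The members and lists were chosen with earlier results of these data known. Some genes of these lists are counted but not reported here by name. Promoter windows and sequences are RefSeq's on GRCm38.p6, matched by gene ID, and gene coordinates are of the same assembly.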

Additional observations from a re-analysis of the deposited data

Results flagged for a closer look

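By FPKM, several genes had all HDAC3-deficient libraries on one side of their controls in one cell type and all on the other side in another. These differences between cell types were not tested, since the tables were normalized separately. How many of all genes show such a pattern was not counted. Over all genes tested, 17.6% lay above and 48.2% below both controls in LMPPs, 15.2% and 28.4% in CD115-CDPs and 27.2% and 48.9% in BM pDCs. FPKM ran lower in the HDAC3-deficient BM pDC libraries. Groups of 2 libraries are too small for a test of outlying libraries.

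*Fads1* had calls of opposite sign, with a log2 change of -0.74 in LMPPs and 0.41 in BM pDCs. *Tm7sf2* had a log2 estimate of 0.71 in LMPPs, without a call, and of -0.53 in BM pDCs, with a call. In LMPPs its groups barely separated, at 3.60 FPKM in HDAC3-deficient library 1 and 3.59 FPKM in control library 2. *Sqle* had 0.61 in CD115-CDPs, without a call, and -0.43 in BM pDCs, with a call. *Insig1* had -0.60 in LMPPs, 0.61 in CD115-CDPs and -0.046 in BM pDCs, none called. *Fdps* had 0.22 in LMPPs, -0.72 in CD115-CDPs and -0.14 in BM pDCs, none called. *Acaca* had 0.32 in CD115-CDPs and -0.22 in BM pDCs, none called.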

How the results depend on the processing

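None of the synthesis genes with a call in LMPPs or BM pDCs changed sign in any alternative run. In LMPPs the 2 rises numbered 0 without a filter on low values and 1 without the trend, and the 2 falls numbered 1 without that filter, with median ratio scaling and with quantile normalization. Leaving out each library in turn gave 0 to 3 rises and 1 to 5 falls in LMPPs, 0 to 3 rises and 0 to 6 falls in CD115-CDPs, and 1 to 6 rises and 5 to 13 falls in BM pDCs, with 5 falls when either control library was left out. In BM pDCs, DESeq2 gave 3 rises and 9 falls and limma on FPKM gave 3 and 14. Over all genes, LMPP rises and falls numbered 480 and 2096, against 863 and 999 with median ratio scaling, 777 and 874 with quantile normalization, 227 and 1892 without the trend, 50 and 451 without the filter, 951 and 2981 without HDAC3-deficient library 1, 287 and 1304 without control library 1 and 172 and 995 without control library 2. BM pDC rises and falls numbered 2753 and 2858, against 1881 and 3696 with limma on FPKM, 1558 and 1360 without control library 1 and 1449 and 1303 without control library 2. In CD115-CDPs, 0 and 0 became 0 and 2 with quantile normalization, 1640 and 3471 without HDAC3-deficient library 1 and 572 and 823 without HDAC3-deficient library 2. The cause of these differences was not tested. A left-out library leaves 1 in its group, which is assumed to vary like the others.

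The replicate numbers of the labels are shared by the genotypes, but nothing says that they pair libraries, and the deviations of same-numbered libraries correlated at -0.10, 0.24 and -0.24 in LMPPs, CD115-CDPs and BM pDCs. With a replicate block, 1 synthesis gene fell in CD115-CDPs (*Srebf2*), where 102 genes rose and 291 fell in all, and the counts were 2 and 2 in LMPPs and 3 and 9 in BM pDCs. In BM pDCs few reads were estimated for *Scd1* (28 to 75 per library) and *Acacb* (4 to 18), and for the other 2 cell types the depth is unknown.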
